A study of Mus musculus with 22 samples.

Results

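Cd74, H2-Aa, H2-Ab1 and H2-Eb1, the 4 MHC class II genes described here, were read as rows of the count tables of a mouse study of esophageal epithelium, out of 17541 genes in all. They were selected on measured values of these data, namely their unique molecular identifiers (UMIs, counted molecules) per mouse and whether those UMIs lay in cells that carried the keratins Krt5 or Krt4 or in cells with few keratin UMIs. Their levels by condition and by keratin class are therefore given as descriptions, with no test of the members. Single-cell RNA-Seq was done on the inDrop platform on epithelium peeled from the esophagi of 13 C57BL6 mice, in 22 libraries. The 6 control mice were untreated, and were 3 to 4 months (mice 1, 2 and 6) or 18 to 20 months old (mice 3, 4 and 5). The 4 mice with eosinophilic esophagitis (EoE) were treated with MC903, a vitamin D analog put on the skin, and the egg allergen OVA over 32 days, and were 6 to 8 weeks (mice 9 and 10) or 19 to 20 months old (mice 11 and 12). The 3 mice with esophageal squamous cell carcinoma (ESCC), 8M, 17F and 17M, were 8 to 10 months old and took the carcinogen 4NQO in propylene glycol at 100 µg/mL for 16 weeks, followed by 8 weeks without it. The propylene glycol was not given to the controls, and no ESCC mouse shared an age range with a control mouse, so treatment, vehicle and age cannot be told apart for ESCC. The EoE mice aged 6 to 8 weeks also shared no age range with a control mouse. The untreated controls did not receive the ethanol in which MC903 was applied, so EoE is not fully separated from age and vehicle either.

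MHC class II molecules are pairs of an alpha and a beta chain that show peptides to CD4+ T cells at the cell surface. H2-Aa and H2-Ab1 encode the alpha and beta chains of the mouse I-A molecule, H2-Eb1 encodes the beta chain of I-E, and Cd74 encodes the invariant chain, which guards the peptide groove and guides the molecule to endosomes. Dendritic cells, Langerhans cells of stratified epithelia, macrophages and B cells make all of them under the coactivator CIITA, and interferon gamma can start the same genes in epithelial cells. The alpha chain partner of I-E, H2-Ea, is not made in C57BL/6 mice and was not analysed here.

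H2-Ab1 (ENSMUSG00000073421, chr17:34257689-34269419, plus strand), H2-Aa (ENSMUSG00000036594, chr17:34282744-34287823, minus strand) and H2-Eb1 (ENSMUSG00000060586, chr17:34305867-34316674, plus strand) are neighbours in GRCm38. All 3 are protein-coding, and an antisense gene, Gm20513, overlaps 2204 bases of H2-Eb1. The last 300 bases of each member's longest coding transcript shared 0 of 270 sequences of 31 bases with any other annotated gene. The 120 bases before the start sites of H2-Aa (chr17:34287824-34287943) and H2-Eb1 (chr17:34305747-34305866) are shown 5′ to 3′ on the gene's strand (RefSeq, GRCm38.p6) because they encode chains of both class II molecules, I-A and I-E. Capitals mark the core of the X box, GCAACT, and the Y box, CTGATTGG, elements through which the class II regulators RFX and NF-Y act.
H2-Aa: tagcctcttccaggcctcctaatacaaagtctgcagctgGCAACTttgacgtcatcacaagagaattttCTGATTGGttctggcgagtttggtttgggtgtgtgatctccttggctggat
H2-Eb1: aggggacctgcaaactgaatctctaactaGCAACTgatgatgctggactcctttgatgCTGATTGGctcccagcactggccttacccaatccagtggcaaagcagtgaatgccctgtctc
The X box core began 81 bases before the start site of H2-Aa and 91 before that of H2-Eb1, and the Y box began 51 and 62 bases before it. Searched on both strands, the Y box letters were found in 2.84% and the X box core letters in 4.31% of the 32851 promoter windows of the same length, and both in 0.116%. These matches describe the letters of the window only.

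All cells of the deposited tables were used, 1500 per condition, because a filter on immune markers would have removed carriers of these genes. Depth differed greatly between conditions. The median cell held 990 UMIs in control mice, 138 in EoE mice and 3099.5 in ESCC mice, and the summed UMIs per mouse ran from 112412 to 427752, from 61571 to 85774 and from 1293418 to 2118140. Within the study's limits on genes and UMIs per cell lay 1500, 144 and 1494 of these cells. Krt5 or Krt4 was seen in 99.5% of control, 67.2% of EoE and 98.9% of ESCC cells. In the 9 mice with a pair of libraries, the libraries of a mouse shared 4 to 52 cell barcodes, 239 in all (122 in control and 117 in ESCC mice). The cells of such a pair had nearly the same UMI totals (r from 0.891 to 1.000 over the pairs of a mouse) and like profiles, with a median r of 0.625 to 0.858 against 0.263 to 0.476 for cells with different barcodes. Libraries of different mice shared at most 4 barcodes. Such a pair may be 1 cell counted in both libraries, so results are also given with 1 copy of each.

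In control epithelium, class II UMIs were few, and 57 of 69 were of H2-Ab1. Over 1500 cells and 1750800 UMIs there were 4 UMIs of Cd74, 5 of H2-Aa, 57 of H2-Ab1 and 3 of H2-Eb1. H2-Ab1 was counted in each of the 6 mice, with 17, 9, 4, 15, 3 and 9 UMIs in mice 1 to 6, or 42, 43.6, 35.6, 35.1, 10.6 and 28.3 CPM (UMIs per 1000000 UMIs of the mouse). Mouse 5 was the lowest and the other 5 mice lay close together, with a mean of 32.5 CPM ± 12.0 (SD, n = 6) over all 6. The other members were at 0 or 1 UMI in each control mouse, except that mouse 5 held 4 UMIs of H2-Aa (14.2 CPM). No control cell held more than 1 class II UMI, and all 69 cells with such a UMI carried Krt5 or Krt4, as did 99.5% of all control cells. With 1 copy of each shared barcode, 61 class II UMIs were left in control mice, 49 of them of H2-Ab1.

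H2-Ab1 in control cells leaned toward the cells with more Krt5, the keratin of basal cells, than Krt4, the keratin of suprabasal and superficial cells. Pooled over the 6 mice, it stood at 56.4 CPM (39 UMIs) in the 655 cells with more Krt5 and at 17.6 CPM (18 UMIs) in the 804 cells with more Krt4. The value was higher in the Krt5 cells of every control mouse, from 18.1 against 5.93 CPM in mouse 5 to 78.1 against 17.1 CPM in mouse 1. These values rest on few UMIs. In mice 1 to 6 the Krt5 cells held 13, 8, 3, 7, 2 and 6 UMIs and the Krt4 cells 4, 1, 1, 8, 1 and 3. This split was chosen after the values were seen and was not tested.

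In EoE epithelium the class II count was too small to rank the members. The 4 mice held 3 UMIs of Cd74, 2 of H2-Aa, 4 of H2-Ab1 and 3 of H2-Eb1 among 297425 UMIs. Mice 9, 10, 11 and 12 held 2, 4, 6 and 0 class II UMIs in all, or 23.3, 51.2, 97.4 and 0 CPM, against 31.5 to 53.3 CPM in the control mice. The groups overlapped for each member. Relative to control, the pooled H2-Ab1 level was 0.413 times as high, with an exact 95% interval of 0.109 to 1.12, and the summed members 1.02 times (0.505 to 1.90). These intervals cover counting error only. A zero in mouse 12 allows up to 41.7 CPM (3 counts), which is above the control mean of the sum, 39.4 CPM ± 8.79 (SD, n = 6).

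The 12 class II UMIs of EoE mice lay in 7 cells. Of these cells, 4 had no UMI of Krt5 or Krt4 and held 9 of the UMIs, although such cells made up 32.8% of EoE cells and 19.2% of EoE UMIs. The cell with the most class II UMIs, in mouse 11, had 106 UMIs in all, among them 1 of Cd74, 1 of H2-Aa, 2 of H2-Ab1, 0 of H2-Eb1 and 1 of Cd207, which encodes langerin of Langerhans cells, and no keratin UMI. None of the 7 cells reached the study's minimum of 250 genes. The 144 EoE cells within the study's limits held 0 class II UMIs among 98332 UMIs, which allows up to 30.5 CPM (3 counts), against 31.5 to 53.3 CPM in the control mice. This bound covers counting error only and rests on the few EoE cells within the limits.

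ESCC mice had far more UMIs of every member. Cd74 had 140, 337 and 284 UMIs in mice 8M, 17F and 17M, or 108, 190 and 134 CPM. H2-Aa had 148, 456 and 361 UMIs, or 114, 257 and 170 CPM. H2-Ab1 had 137, 402 and 312 UMIs, or 106, 226 and 147 CPM. For all 4 members mouse 17F was the highest and 8M the lowest, and every ESCC mouse was above every control and EoE mouse. The share of all genes that separate the mice in this way is not given here, so the separation is a description only. H2-Eb1 had the most UMIs, with 255, 590 and 502, or 197, 332 and 237 CPM, against a single UMI in each of 3 control mice and none in the other 3.

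Relative to control, the pooled ESCC level was 64.2 times as high for Cd74 (exact 95% interval 25.0 to 236), 65.1 times for H2-Aa (27.8 to 201), 152 times for H2-Eb1 (51.7 to 736) and 5.04 times for H2-Ab1 (3.85 to 6.71). H2-Ab1, the member with the highest control level, had the smallest ratio. In edgeR's quasi-likelihood fit over 5971 genes, the log2 fold was 5.99 (SE 0.40) for Cd74, 6.02 (SE 0.45) for H2-Aa, 2.45 (SE 0.28) for H2-Ab1 and 7.18 (SE 0.37) for H2-Eb1. In that fit, 16.6% of all genes tested were higher and 16.9% lower in ESCC at an adjusted p under 0.05. In EoE, with 21.4% of genes higher and 29.3% lower, the log2 folds were 2.14 (SE 1.16), 1.28 (SE 1.52), -1.13 (SE 0.80) and 2.51 (SE 1.14) for Cd74, H2-Aa, H2-Ab1 and H2-Eb1. The members were selected on these values, so the folds are descriptions and no call is read from them. Both comparisons share the control mice.

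**Figure D1:**
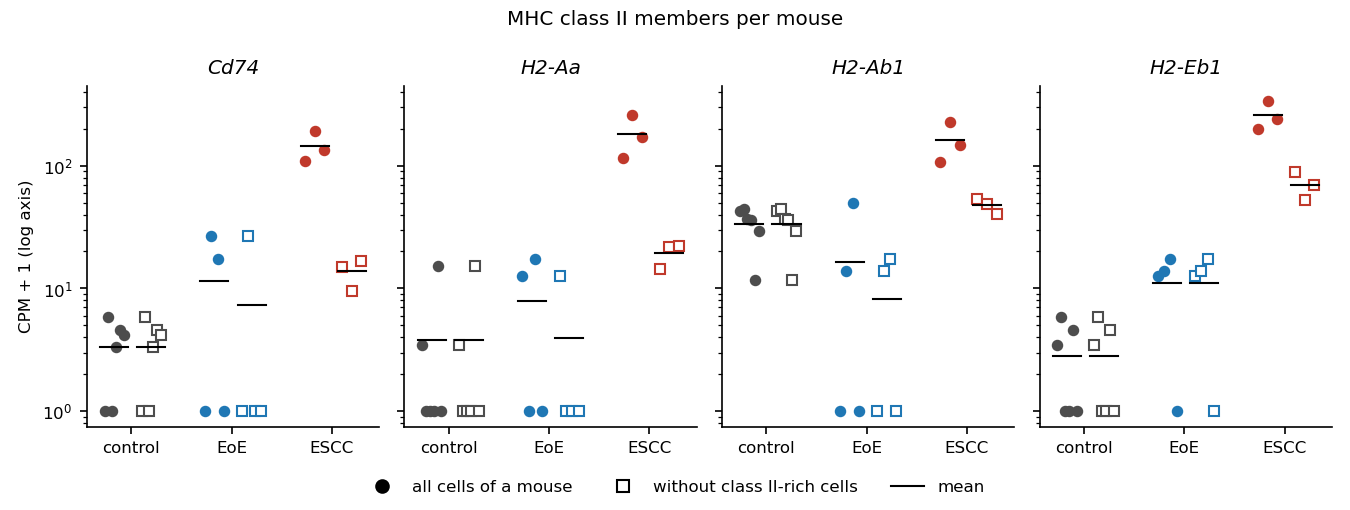
Level of each member per mouse (CPM + 1, log axis), with 6 control, 4 EoE and 3 ESCC mice; filled circles are all cells, open squares leave out the class II-rich cells, and bars are means. ESCC mice lay above all others over all cells. Without the class II-rich cells, H2-Eb1 stayed at 51.4 to 87.5 CPM in ESCC mice, whereas H2-Ab1 stood at 39.3 to 52.4 CPM, against 10.6 to 43.6 CPM in control mice.

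Most class II UMIs of ESCC mice came from a small number of cells. Cells were called class II-rich where they held at least 3 class II UMIs and these made up at least 1% of the cell's UMIs. There were 28 such cells among 1500 in ESCC mice (1.87%, exact 95% interval 1.24% to 2.69%), 13 in mouse 17F, 11 in 17M and 4 in 8M. Control mice had 0 of 1500, which allows a share of up to 0.2% (3 counts), and EoE mice had 1, the cell of mouse 11 with 106 UMIs. The 28 cells held 3184 of the 3924 class II UMIs of ESCC mice (81.1%), with 68.5% in mouse 8M, 87.4% in 17F and 79.4% in 17M. Each held 32 to 194 class II UMIs, 1.28% to 11.4% of its UMIs, and a UMI of all 4 members. One pair, in 17F, was a barcode shared by its libraries, so that 27 cells and 81.7% were left with 1 copy of each. Just outside the limit lay cells with 0.945%, 0.646% and 0.560% class II UMIs, and just inside it cells with 1.28%, 1.72% and 1.91%.

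**Figure D2:**
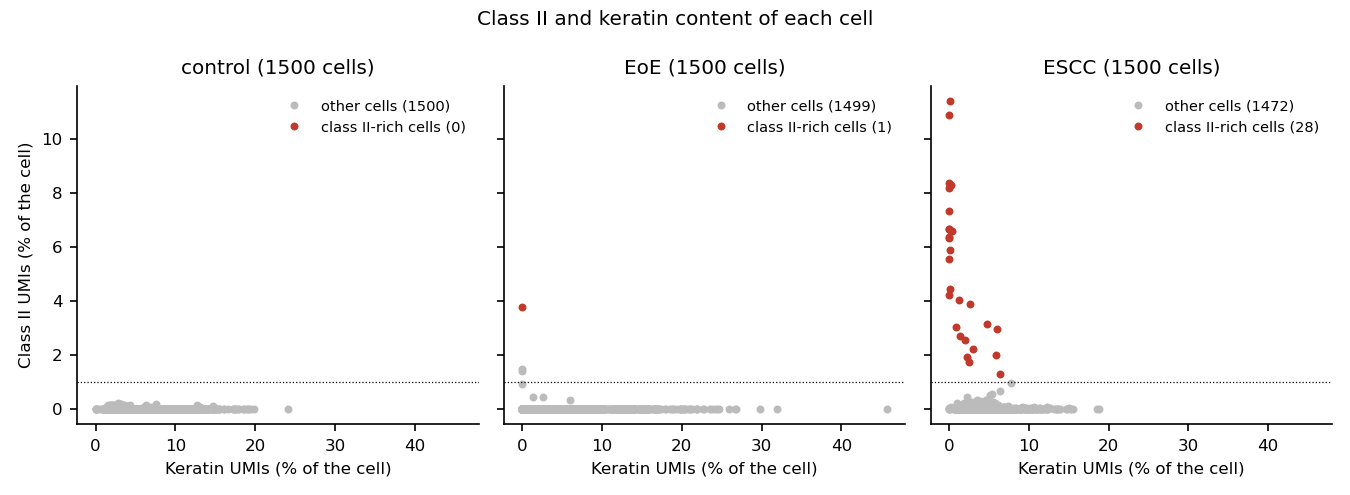
Share of class II UMIs against share of keratin UMIs in each cell, by condition; the dotted line marks 1%, and red points are class II-rich cells. In ESCC the class II-rich cells run from no keratin up to 6.40% keratin UMIs. The EoE cells above the line in grey hold 1 or 2 class II UMIs, under the minimum of 3.

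By keratin class, 59.8% of the class II UMIs of ESCC mice lay in cells with Krt5 or Krt4, which were 98.9% of the cells. The other 40.2% lay in the 17 cells with neither. Of the 2348 class II UMIs in cells with Krt5 or Krt4, 1609 lay in 16 class II-rich cells. Only 739 lay in the 1467 cells with Krt5 or Krt4 that were not class II-rich. Each of the 16 class II-rich cells also held at least 8 UMIs of leukocyte markers. The share in cells without Krt5 or Krt4 was 63.8% in mouse 17F, 22.4% in 8M and 19.5% in 17M. Cells were called keratin-poor where their share of UMIs on 46 keratin genes was more than 5 times lower than the median of their mouse. The 24 keratin-poor cells of ESCC mice held 54.1% of the class II UMIs. Of the 28 class II-rich cells, 16 were keratin-poor, with a median of 0.0573% keratin UMIs, and 12 of these had no UMI of Krt5 or Krt4. The other 12 class II-rich cells held 0.911% to 6.40% keratin UMIs, up to 56 of Krt5, together with 8 to 21 UMIs of leukocyte markers. Scrublet, a doublet caller, marked none of the 28. Whether these 12 droplets held a leukocyte and a keratinocyte, keratin RNA from outside the cell, or both in a single cell was not tested.

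Class II-rich cells carried leukocyte genes. On 12 pan leukocyte markers they held 513 UMIs (7290 CPM), against 562 UMIs (110 CPM) in the 1472 other ESCC cells, and each of the 28 had at least 8. Per mouse, the leukocyte share was 0.469% in class II-rich cells and 0.00477% in the other cells of 8M, 1.07% and 0.0109% in 17F, 0.553% and 0.0149% in 17M, and 0.943% and 0.00976% in EoE mouse 11, where it rested on 1 UMI. It was higher in the class II-rich cells of 4 of 4 mice, by 0.750 percentage points on average ± 0.293 (SD, n = 4, two-sided exact permutation test over signs, p = 0.125, the smallest that 4 mice allow). Among the markers, Cd52 had 105 UMIs in class II-rich cells and 62 in the other ESCC cells, Lcp1 76 and 66, Laptm5 66 and 57, Cd53 42 and 47, and Srgn 67 and 139. Ptprc, which encodes the leukocyte antigen CD45, was seen in 19 of the 28. Over all cells of a mouse, the 12 markers summed to 0 to 48.4 CPM in control and 11.7 to 114 CPM in EoE mice. In ESCC mice they summed to 98.2 to 265 CPM, a range that overlapped with EoE. Pooled, EoE stood at 40.3 CPM (12 UMIs) and control at 18.8 CPM (33 UMIs, 26 of them of Arhgdib). The summed members in EoE were 1.02 times control, so leukocyte RNA and the class II level did not move together in every condition. The part of leukocyte RNA in the class II level was tested no further than by leaving out class II-rich cells.

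Markers of dendritic and of macrophage lineages were both present. The 42 UMIs of Cd207 lay in 9 class II-rich cells, with 1 further UMI in all other cells of the series. Itgax, which encodes CD11c, had 36 UMIs in 17 class II-rich cells and 2 elsewhere. Csf1r, the receptor for colony-stimulating factor 1, had 72 UMIs in 23 class II-rich cells of ESCC mice and 7 in the other ESCC cells. The complement genes C1qa, C1qb and C1qc together marked 13 of the 28, and 10 of these held at least 2 UMIs of them. Of the 13, 5 also had Cd207, while 12 of the 28 had neither. Those 5 included the second copy of the barcode shared in 17F, with 1 UMI of the complement genes. In ESCC mice, Cd207 was seen in class II-rich cells of 17F and 17M and not of 8M. B cell markers, with 3 of 6 genes listed in the tables used here, had 0 UMIs, and the T and NK cell list, with 6 of 9, had 3, all of Cd3g in 1 cell. The fibroblast list had 3 UMIs there, the endothelial list 2, the muscle list 0, and the eosinophil and mast cell list 0, on 4 of its 8 genes. Fscn1 and Plbd1, also on these lists, were no guide here, with 1031 and 771 UMIs in the other ESCC cells.

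The genes most concentrated in the 29 class II-rich cells of the series, by share of UMIs against all other cells, were Cd207, Itgax, Irf8, Fcgr2b, Runx3, C1qc, Ciita, Csf1r, Gpr141, Spi1, Rtn1, Klrb1b, Zmynd15, Alox5ap and C1qa, among 1350 genes with enough UMIs. Irf8 and Spi1 encode transcription factors of the myeloid and dendritic lineages, Fcgr2b an inhibitory Fc receptor, and Alox5ap the activating protein of leukotriene synthesis. Their shares were from 443 times (C1qa) to at least 1423 times (Cd207, counted against a floor of 3 UMIs) higher. The members' own ratios were 983 for Cd74, 858 for H2-Aa, 291 for H2-Eb1 and 216 for H2-Ab1, and they defined the cells. H2-Eb1 and H2-Ab1 had the lowest of these 4 ratios.

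**Figure D3:**
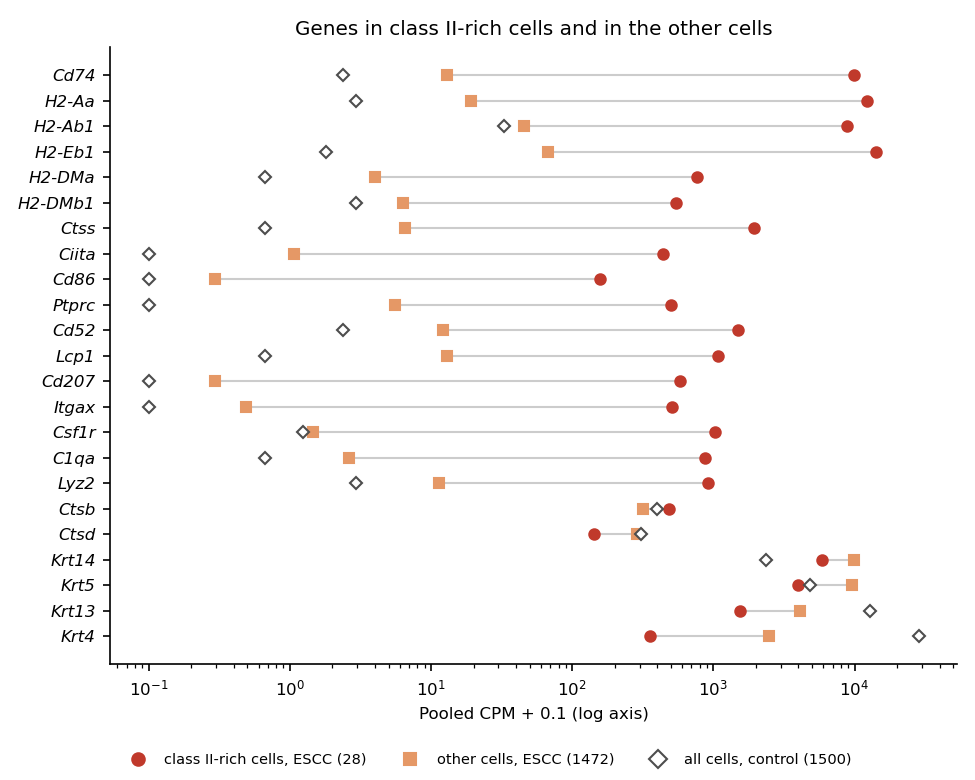
Pooled level (CPM + 0.1, log axis) of the members, class II pathway genes, leukocyte markers and keratins in the 28 class II-rich cells and the 1472 other cells of ESCC mice and in the 1500 control cells. Leukocyte and class II pathway genes lie far to the right in class II-rich cells, whereas Ctsb, Ctsd and the keratins lie close together or to the left.

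Outside the class II-rich cells, the members did not keep the proportions that they had inside them. Class II-rich cells of ESCC mice held 695 UMIs of Cd74, 868 of H2-Aa, 618 of H2-Ab1 and 1003 of H2-Eb1, or 21.8%, 27.3%, 19.4% and 31.5%. The 1472 other ESCC cells held 66, 97, 233 and 344, or 8.92%, 13.1%, 31.5% and 46.5%. There were 1.44 UMIs of H2-Eb1 per UMI of Cd74 in class II-rich cells and 5.21 in the others. By mouse the ratio was 1.17, 1.55 and 1.43 in the class II-rich cells of 8M, 17F and 17M and 6.22, 6.00 and 4.30 in their other cells, so that the cell groups did not overlap in 3 of 3 mice. With 1 copy of each shared barcode, the other cells held 63, 95, 218 and 316 UMIs of Cd74, H2-Aa, H2-Ab1 and H2-Eb1. The part of free RNA in the class II UMIs of the other cells was not tested.

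Leukocyte UMIs moved with this split. The 147 other ESCC cells with a pan leukocyte UMI held 37 UMIs of Cd74, 37 of H2-Aa, 47 of H2-Ab1 and 56 of H2-Eb1, which is 1.51 of H2-Eb1 per Cd74, close to the class II-rich cells. The 1325 without a leukocyte UMI held 29, 60, 186 and 288, which is 9.93 of H2-Eb1 per Cd74. Together H2-Ab1 and H2-Eb1 made up 33.0% and 51.2% of the class II UMIs of these 1325 cells. Their H2-Eb1 level was 62.6 CPM, against 1.71 CPM in control cells, and their H2-Ab1 level 40.5 CPM, against 32.6 CPM in control cells.

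**Figure D4:**
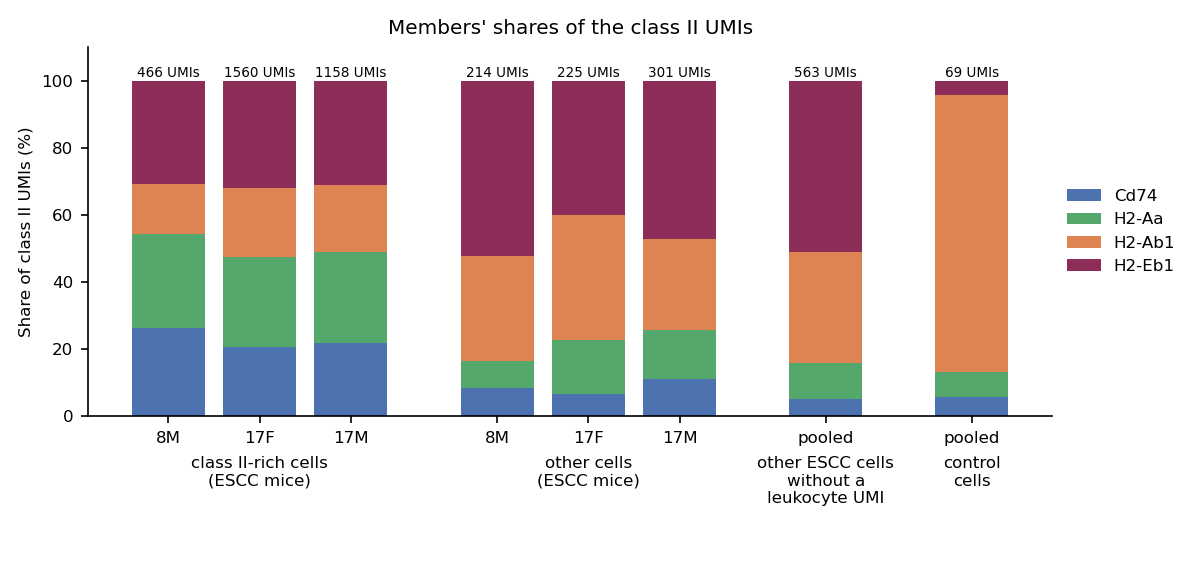
Share of each member in the class II UMIs (%), in the class II-rich and the other cells of each ESCC mouse, in the other ESCC cells without a leukocyte UMI and in control cells, with the number of UMIs above each bar. H2-Eb1 and H2-Ab1 take the larger part outside class II-rich cells, and H2-Ab1 takes 82.6% in control cells.

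H2-Eb1 was thus the member whose level stayed highest above control once class II-rich cells were left out. It then stood at 87.5, 51.4 and 68.0 CPM in mice 8M, 17F and 17M, on 112, 90 and 142 UMIs. The pooled ratio to control was 39.2 (exact 95% interval 13.3 to 191), against 5.65 for Cd74 (2.10 to 21.3), 6.64 for H2-Aa (2.75 to 20.9) and 1.40 for H2-Ab1 (1.04 to 1.90). H2-Ab1 and H2-Aa then overlapped with control mice, and H2-Eb1 and Cd74 did not. The share of all genes without overlap is not given here either. For Cd74, each control mouse held 0 or 1 UMI, and 3 UMIs there are 7.01 (mouse 4) to 26.7 CPM (mouse 3). The ESCC values of Cd74, 8.57 to 15.8 CPM, lie within that range, so the separation of single mice is not resolved for Cd74. In the edgeR fit without these cells, the log2 fold was 5.29 (SE 0.47) for H2-Eb1 and 0.67 (SE 0.28) for H2-Ab1, again as descriptions, and Cd74 and H2-Aa had too few UMIs to be fitted. Reads of Gm20513 and H2-Eb1 cannot be told apart where they overlap unless strand was used in counting, which is not given in the sources used here.

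Most of the other ESCC cells with a class II UMI held a single member. At the levels above, a cell of median depth is expected to hold under 1 UMI of each member, so 0 UMIs of a member does not show that the cell lacked it. Of the 1472 other ESCC cells, 398 held a class II UMI, of which 159 held H2-Eb1 alone, 119 H2-Ab1 alone, 21 H2-Aa alone, 12 Cd74 alone and 30 only the pair of H2-Ab1 and H2-Eb1. Only 7 held all 4 members. At least 2 UMIs of a single member and none of the others were found in 37 cells for H2-Eb1, 14 for H2-Ab1, 2 for H2-Aa and 1 for Cd74. H2-Eb1 reached 3 or more UMIs in 27 of these cells, all of which carried Krt5 or Krt4, with 11 to 80 UMIs of Krt5. In 11 of the 27 it was the sole member, with up to 7 UMIs, and none of those 11 had a leukocyte UMI. Of the 27, 22 had no leukocyte UMI, and of these 17 held no UMI of Cd74 or H2-Aa and 5 did, among them a cell of 17F with 2222 UMIs that had 2 UMIs of Cd74, 8 of H2-Aa, 8 of H2-Ab1, 3 of H2-Eb1 and 30 of Krt5.

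The deeper ESCC cells offer more chances to see a UMI, so shares of cells were also computed at a common depth. Each cell was thinned, in expectation, to 500 UMIs, which left out 35 control cells and no ESCC cell, and EoE cells were too shallow for it. Among cells with Krt5 or Krt4 that were not class II-rich, H2-Eb1 was then expected in 3.27% ± 0.71 (SD, n = 3) of ESCC and 0.0591% ± 0.0923 (SD, n = 6) of control cells. H2-Ab1 was expected in 2.42% ± 0.40 of ESCC and 1.78% ± 0.57 of control cells. Unthinned, any class II UMI was seen in 27.1% of these ESCC cells and 4.62% of these control cells, at median depths of 3112 and 992 UMIs. At 100 UMIs, with 189 EoE cells left out, the share with any class II UMI was 0.434% ± 0.10 (SD, n = 6) in control, 0.165% ± 0.230 (n = 4) in EoE and 1.55% ± 0.27 (n = 3) in ESCC cells.

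Within ESCC mice, the other cells with more Krt5 than Krt4 (1356 cells) held H2-Eb1 at 69.5 CPM and H2-Ab1 at 46.5 CPM, and the 108 with more Krt4 at 48.7 and 36.5 CPM. H2-Eb1 was higher in the Krt5 cells of 3 of 3 mice, with 96.3 against 60.3 CPM in 8M, 52.3 against 39.9 CPM in 17F and 70.6 against 21.2 CPM in 17M. The values for Krt4 cells rest on 18, 4 and 2 UMIs. H2-Ab1 did not keep this order in 17M, with 38.8 CPM in the Krt5 cells and 53.0 CPM, on 5 UMIs, in the Krt4 cells. ESCC epithelium held more Krt5 (log2 fold 1.03, SE 0.19) and less Krt4 (log2 fold -3.04, SE 0.41) than control, so the mix of these cells moved with the condition. Cells with more Krt5, not class II-rich, were 90.4% of ESCC and 43.7% of control cells. In them, pooled H2-Ab1 stood at 46.5 CPM in ESCC and 56.4 CPM in control. In cells with more Krt4 it stood at 36.5 CPM in ESCC and 17.6 CPM in control. The part of this mix in the H2-Ab1 ratio of 1.40 was not tested.

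Cd74 (ENSMUSG00000024610, chr18:60803848-60812652, plus strand, GRCm38) followed the class II-rich cells most closely, with 91.3% of its ESCC UMIs there. H2-Aa had 89.9%, H2-Eb1 74.5% and H2-Ab1 72.6% of its UMIs there.

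The rest of the class II machinery was read from 17 listed genes for peptide loading, proteases and costimulation. Only Ctsb, Ctsd and Ctsl, the cathepsins of lysosomes, were abundant enough for the main fit, and none passed in ESCC, with a median log2 fold of 0.04, beside a median of -0.00433 over all genes. Ctsb and Ctsd fell in EoE, with log2 folds of -0.84 (SE 0.23, adjusted p = 0.00321) and -0.50 (SE 0.20, adjusted p = 0.0400), beside a median of -0.31 over all genes. In the main fit, 29.3% of all genes were lower in EoE. The scarcer genes were tested in the fit without an expression filter, over 15474 genes, in which 11.0% were higher and 7.32% lower in ESCC and 8.07% and 15.7% in EoE. In ESCC, 3 of the 17 rose and none fell. They were H2-DMa (log2 fold 4.31, SE 0.83, adjusted p = 4.77e-06) and H2-DMb1 (2.30, SE 0.63, adjusted p = 0.00251), the chains of the peptide exchange factor H2-DM, and Ctss, the cathepsin that cuts the invariant chain (5.47, SE 0.68, adjusted p = 3.76e-14). The median log2 fold of the 17 was 1.47, beside 0.21 over all genes in this fit. In EoE none rose, and Ctsb, Ctsd and Lgmn fell.

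The genes that rose had more UMIs in class II-rich than in other ESCC cells, while the 17 together had 330 and 3903. Of their ESCC UMIs, H2-DMa had 54 in class II-rich and 20 in other cells, H2-DMb1 38 and 32, and Ctss 136 and 33. H2-DMb2 had 10 and 2, Cd86, a costimulatory ligand, 11 and 1, H2-Ob 6 and 0, and H2-Eb2 6, all in 1 cell, and 0, and none of these 4 passed. Ctsl had 0 UMIs in class II-rich and 457 in other ESCC cells, Ctsd 10 and 1468, Ctsb 34 and 1633, Ifi30 9 and 79, Lgmn 3 and 63, and Cd80 2 and 35.

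Among 8 regulators of class II transcription, Ciita and Nfyc rose in ESCC in the fit without a filter and none fell. Over all genes in that fit, 11.0% were higher and 7.32% lower. Ciita, the coactivator, had 8, 13 and 15 UMIs in mice 8M, 17F and 17M and 0 in all control and EoE mice (log2 fold 5.05, SE 1.26, adjusted p = 0.000771). Of these 36 UMIs, 31 lay in class II-rich cells, in 18 of the 28, and 5 in the other ESCC cells (0.977 CPM). Nfyc, a subunit of the Y box factor NF-Y, also passed in the main fit (1.01, SE 0.29, adjusted p = 0.00880), in which 16.6% of all genes were higher. Nfyc had 1 UMI in class II-rich and 221 in other ESCC cells. Rfx5, Rfxap and Rfxank, the subunits of the X box factor RFX, had log2 folds of -0.48, 0.53 and 0.33 in the fit without a filter and did not pass. In EoE, Creb1 fell in both fits (main log2 fold -0.92, SE 0.36, adjusted p = 0.0362), and Rfx5 fell in the fit without a filter, on 0 EoE UMIs. Of all genes, 29.3% were lower in EoE in the main fit and 15.7% in the fit without a filter.

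Some genes of the interferon gamma response rose in ESCC, with most of their UMIs outside the class II-rich cells, which held 1.36% of all ESCC UMIs. In the fit without a filter 6 of 11 genes tested rose and none fell, beside 11.0% higher and 7.32% lower over all genes. The median log2 fold was 1.81, beside 0.21 over all genes, and Ifng itself had 0 UMIs in all conditions. Irf1 did not rise, with 28.6 to 38.3 CPM in ESCC and 24.7 to 80.1 CPM in control mice. Gbp2, a guanylate-binding protein, had 77, 51 and 49 UMIs in 8M, 17F and 17M and 3 over all control mice (log2 fold 4.41, SE 0.55, adjusted p = 5.51e-14). Of its ESCC UMIs, 14 lay in class II-rich and 163 in other cells, or 199 and 31.9 CPM. Cxcl10, a T cell chemokine, had 71, 20 and 35 UMIs, against 6 in control mice, all in mouse 4, and 3 of its ESCC UMIs lay in class II-rich cells (log2 fold 3.08, SE 0.52, adjusted p = 6.89e-08). Iigp1 had 19, 13 and 8 UMIs and Gbp3 24, 9 and 8, against 0 and 1 over all control mice. Cxcl9 had 40, 0 and 11 UMIs, so its change rested mostly on mouse 8M. Socs1, an inhibitor of the pathway, also rose (log2 fold 1.81, SE 0.52, adjusted p = 0.00472). None of the 4 genes abundant enough for the main fit passed in ESCC. By level, class II-rich cells were higher for Iigp1 (99.5 against 6.45 CPM), Gbp3 (42.6 against 7.43 CPM), Cxcl10 (42.6 against 24.0 CPM), Socs1 (28.4 against 16.4 CPM) and Cxcl9 (142 against 8.01 CPM), on 2 to 10 UMIs each, those of Cxcl9 all in 1 cell. In EoE, Jak1 rose and Irf1 fell (log2 folds 1.30, SE 0.17, adjusted p = 4.98e-07, and -2.64, SE 0.80, adjusted p = 0.00832). Over all genes in EoE, 21.4% were higher and 29.3% lower in the main fit, and 8.07% and 15.7% without a filter.

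**Figure D5:**
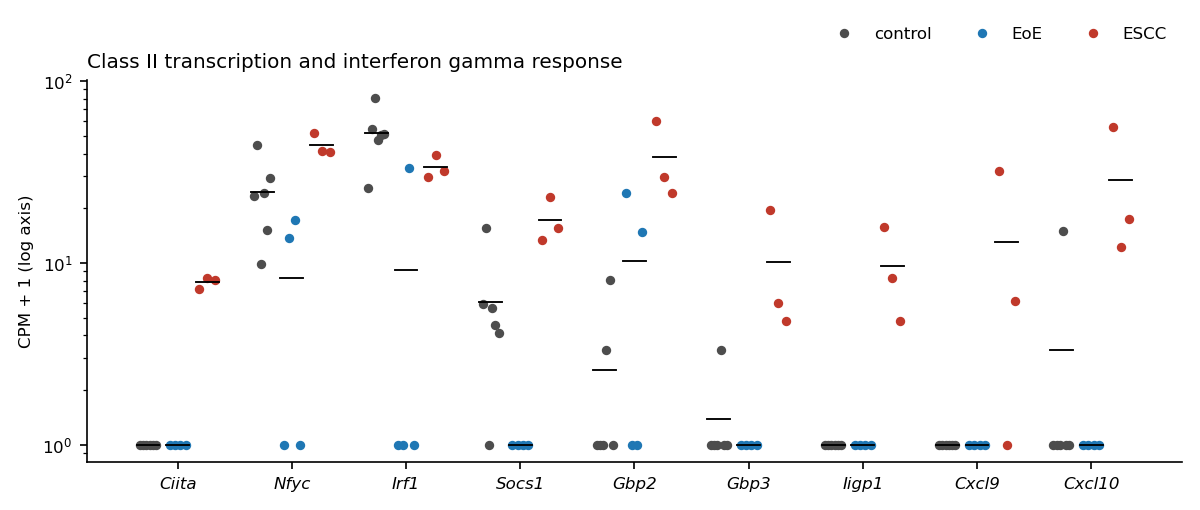
Level per mouse (CPM + 1, log axis) of regulators of class II transcription and of interferon gamma response genes, over all cells of 6 control, 4 EoE and 3 ESCC mice; bars are means. Ciita was at 6.19 to 7.32 CPM in ESCC mice and at 0 in all others, and Gbp2 at 23.1 to 59.5 CPM in ESCC mice.

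Age was not part of the choice of the members and could be tested in control mice. H2-Ab1 was at 38.0 CPM ± 8.39 (SD, n = 3) in young and 27.1 CPM ± 14.3 (SD, n = 3) in old control mice, and the difference did not pass (log2 fold -0.45, SE 0.46, edgeR adjusted p = 0.999). In that fit of 5167 genes, 0.0774% were higher and 0.0194% lower in old mice. The other members had too few UMIs to be tested. In EoE, H2-Ab1 was at 6.40 CPM ± 9.05 in 2 young and 24.4 CPM ± 34.5 in 2 old mice. Young meant 6 to 8 weeks in EoE and 3 to 4 months in control mice. No member had enough UMIs for the test of whether the age effect differed between EoE and control, in which edgeR called 0% of 4394 genes higher and 0.0228% lower, with 335 at an unadjusted p under 0.05, while DESeq2 called 1 higher and 2 lower.

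The genes whose level over the 13 mice was most like that of the summed members were Baz1a, Htra1, Pabpc4, Rwdd4a, Hif1a, Cdc37l1, Cdcp1, Pin4, Pgp and Fam76b, with Spearman rho from 0.929 to 0.835 over log2 CPM. H2-Ab1 itself had a rho of 0.900, Cd74 0.861, H2-Eb1 0.816 and H2-Aa 0.636. The mice fall into 3 conditions that differ in depth, so these values mainly order conditions.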

How the data were processed

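The authors deposited UMI counts per gene and cell for 22 inDrop libraries of 13 mice. According to the study's methods and the submitters' processing notes, reads were processed with UMI-tools 1.0.0, aligned with STAR 2.7.3 to GRCm38, assigned to GENCODE genes with featureCounts and filtered in Seurat, and 1500 cells per condition were drawn. Whether strand was used in counting is not given in the sources used here.

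The mouse was the replicate. UMIs were summed over all cells of a mouse, and levels are in CPM (UMIs per 1000000 UMIs). Intervals are exact 95% intervals and cover counting error only, and a count of 0 was read against a floor of 3 UMIs. Conditions were fitted on the summed counts with edgeR 4.0.16 (quasi-likelihood test, TMM, filterByExpr, R 4.3.3) over all 13 mice, age within control mice, and the difference of the age effect between EoE and control mice, with Benjamini-Hochberg adjustment at 0.05 over all genes tested. DESeq2 1.42.0, other size factors, no expression filter, the study's limits per cell, removal of cells called non-epithelial (at least 3 marker UMIs) and leaving out each mouse were alternatives. Using 1 copy of shared barcodes and leaving out class II-rich cells were chosen after seeing the data. The SE printed with an edgeR log2 fold was derived from the test. It is the size of the fold divided by the square root of its F statistic, and is approximate. Doublets were sought with Scrublet in scanpy 1.11.5, which marked 40 control, 59 EoE and 24 ESCC cells, and none was removed. In simulated data, edgeR found 200 of 200 genes changed by a log2 fold of 2 in EoE against control, with 13 false calls, and 200 of 200 in ESCC against control, with 9. The changed genes were drawn from abundant genes only, with the same dispersion for every gene, and were fitted with the expression filter. The simulation therefore does not cover the scarce genes called in the fit without a filter.

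The members, the gene lists and the class II-rich rule were chosen with earlier results of these data known. The genes named are the members, 3 lists (antigen presentation, class II transcription, interferon gamma response), marker genes, keratins, the 10 genes most like the summed members over mice and the 15 most concentrated in class II-rich cells (at least 10 UMIs in at least 5 of them). Gene positions are from GENCODE M21 (GRCm38) and promoters from RefSeq. Nothing in the labels says more of the mice than that they are separate animals, and p-values measure the spread between them. Some listed genes are not reported here, and the interferon gamma counts leave 1 out.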

Additional observations from a re-analysis of the deposited data

Results flagged for a closer look

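H2-Aa in control mouse 5 stood at 14.2 CPM, on 4 UMIs in 4 cells, while the other 5 control mice had 0 or 1 UMI. It lay farther from the other mice than Dixon's 95% limit allows, among 10 groups of mice looked at. That limit assumes normally distributed values, which counts of 0, 1 and 4 UMIs are not. The flag is therefore a description, and no chance rate is read from it.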

How the results depend on the processing

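The higher class II level of ESCC mice kept its direction under every alternative run. Without class II-rich cells, Cd74 and H2-Aa had too few UMIs to be fitted. The difference of the summed members between ESCC and control, 701 CPM, was 295 without cells called non-epithelial and 107 without class II-rich cells. The share of ESCC class II UMIs in cells with Krt5 or Krt4 then went from 59.8% to 100% and 99.9%, and that in keratin-poor cells from 54.1% to 0% and 0.405%, since the cells removed carried the rest. In EoE, the difference of the sum from control went from 3.55 to -39.4 CPM in cells within the study's limits, where no class II UMI was left, and the fitted log2 folds turned to -3.32 for Cd74, -3.61 for H2-Aa and -2.95 for H2-Eb1, and 549 genes were higher in place of 1279.

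Without an expression filter 1702 genes were higher in ESCC in place of 991. Leaving out each mouse gave 587 (without 17F) to 1032 genes lower in ESCC, with 614 without 17M, in place of 1010. For age in control mice, 4 genes were higher and 1 lower. The higher count was 2 with 1 copy of shared barcodes, 1 by DESeq2, 12 without a filter and 0 with 5 groups by age, and the lower count 11 without a filter and 0 with 5 groups by age. Leaving out each control mouse gave 0 to 4 higher and 0 to 3 lower. For the age effect in EoE against control, DESeq2 called 1 higher and 2 lower, no filter gave 12 lower, and leaving out each mouse gave 0 (without EoE 11 or EoE 12) to 8 (without control 3) lower. The cause was not tested. The leukocyte share of class II-rich cells was higher under every alternative run. No paired analysis was possible because the groups share no replicate numbers. Depth limits EoE most: 3 UMIs there are 10.1 CPM over all mice.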
